A study of Mus musculus with 6 samples.

Results

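Molecular chaperones of the cytosol and the mitochondria, with their cofactors and the factors that drive their heat-induced transcription, were followed in B cells stimulated through TLR9. The set was a list of 46 genes chosen by name, and all 46 were among the 23420 genes in the files. All 46 also passed the filter on low values, a level over 10 reads in 3 or more samples, which kept 11233 genes for testing. RNA-seq had been done on B cells from spleens of WT BALB/c mice, isolated with beads and cultured for 4 hours with CpG ODN 1826, a synthetic TLR9 ligand, at 10 μg/ml (3 samples, here CpG-stimulated) or without it (3 samples, here unstimulated). Mice (3 in all) were aged 7 to 11 weeks, with replicates 1 and 2 of each group labeled as female and replicate 3 as male, and 10 M cells went into a culture at a density of 10 M/ml. All samples were of WT mice. Values were log2 CPM, in which reads are scaled to a common library total and on which a gene without reads stood at -5.15 and a gene with 10 reads at -0.76. These levels correspond to a nominal library of 17.8 M gene-assigned reads. It is a single value for all 6 samples after normalization, so it does not give the depth of each library, and levels in reads are nominal too.

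HSP70 proteins bind unfolded stretches of a client protein, J proteins bring the clients and trigger ATP hydrolysis, and exchange factors such as HSP110 and BAG proteins release the nucleotide so that the cycle can start again. Some clients then pass to HSP90 through a set of cochaperones, while actin, tubulin and other proteins are folded inside the ring-shaped CCT chaperonin, to which prefoldin hands them. Mitochondria hold their own HSP70 and a HSP60/HSP10 chamber for imported proteins. Part of this machinery is made at all times and part is made on heat or proteotoxic stress, when heat shock factors bind heat shock elements, which are inverted repeats of GAA, in the promoters.

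Labeled B cells carried B cell RNA. All 6 B cell markers used (Cd79a, Cd79b, Ms4a1, Pax5, Cd22 and Ebf1) were above the level of 10 reads, with a summed level of 1730 to 2100 CPM with CpG and 3280 to 3850 CPM without. T cell markers summed to 11.3 to 22.1 CPM with CpG and 79 to 105 CPM without; 4 of the 7 were at or under 3 reads in all samples, and only Cd2 averaged over 10 reads. Myeloid markers (4 of 6 over 10 reads) summed to 10 to 15.6 against 7.35 to 14.4 CPM, NK cell markers (1 of 4) to 1.51 to 2.59 against 2.98 to 3.43 CPM, and plasmacytoid dendritic cell markers (2 of 4) to 24.4 to 26.1 against 38.1 to 41.7 CPM. Erythroid markers (5 of 5) ran from 397 to 4980 CPM with CpG and from 420 to 3910 CPM without, and were highest in replicate 2 of each group. In bulk samples, fewer cells of a type and less RNA per cell cannot be told apart, and CPM values do not show a change in total RNA per cell. The part of these marker levels in the results was not tested.

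Chaperone RNA was higher as a group in the CpG-stimulated cells, with a small set of genes going the other way. Over all 46 genes, summed levels were 21534, 20368 and 20955 CPM with CpG and 11990, 12155 and 11632 CPM without, or 20950 ± 583 against 11930 ± 267 CPM (SD, n = 3 in each group), a ratio of 1.76. All CpG-stimulated samples were above all unstimulated samples. Tested gene by gene (limma, Benjamini-Hochberg adjustment over all 11233 genes, FDR under 0.05), 36 of the 46 genes rose (78.3%), where 37.6% of all genes tested did. Only 8 fell (17.4%), where 36.7% of all genes did, and 2 did not pass the test. With a log2 fold change (log2FC, CpG-stimulated minus unstimulated) over 1, 15 rose (32.6%), against 15.8% of all genes. At a log2FC under -1, 4 fell (8.70%), against 15.3% of all genes. The groups did not overlap in 44 of the 46 genes (95.7%), against 77.7% of all genes. In all 46, the differences between CpG-stimulated and unstimulated samples of the same replicate number had the same sign in the 3 pairs. Genes whose groups do not overlap must have the same sign in all 3 pairs, so for 44 of the 46 this adds nothing. The same sign also held for 83 of 99 further chaperone genes, described below. Its share over all genes was not computed, but cannot be under the 77.7% without overlap. The median log2FC of the 46 genes was 0.81, with a range of -2.47 to 2.15. For all genes tested the median was 0.0033 with quartiles of -0.62 and 0.65.

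**Figure D1:**
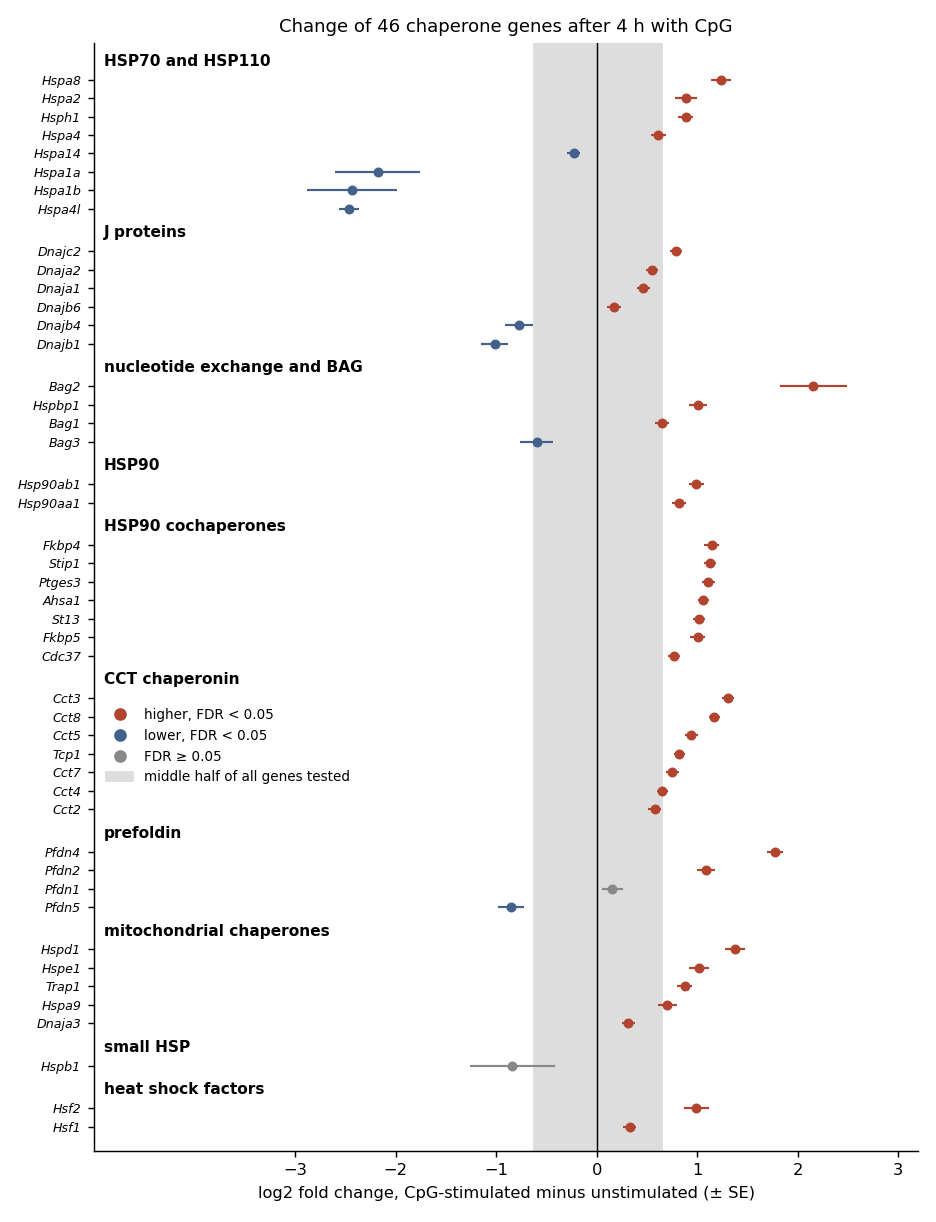
Log2FC (x axis, CpG-stimulated minus unstimulated, with its SE from limma, 3 samples in each group) of the 46 chaperone genes, grouped by role; red points passed an FDR of 0.05 and were higher, blue points passed and were lower, gray points did not pass, and the gray band spans the quartiles of all 11233 genes tested. HSP90, its cochaperones, the CCT subunits and the mitochondrial chaperones are all to the right of 0, while HSP70 family genes lie on either side, from -2.47 to 1.24.

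The plot of log2FC by role shows where the exceptions were. The HSP90, HSP90 cochaperone, CCT, mitochondrial and heat shock factor groups had no gene that fell, and the 8 that did were Hspa1a, Hspa1b, Hspa4l and Hspa14 in the HSP70 and HSP110 group, Dnajb1 and Dnajb4 among the J proteins, the BAG protein Bag3 and the prefoldin subunit Pfdn5. The plot of the cumulative distribution compares the whole set with all genes.

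**Figure D2:**
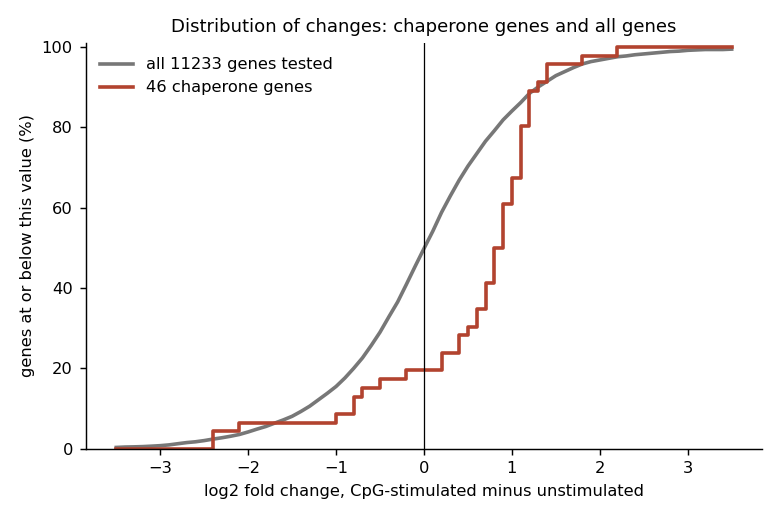
Share of genes (y axis, percent) with a log2FC at or below the value on the x axis (CpG-stimulated minus unstimulated), for the 46 chaperone genes (red) and all 11233 genes tested (gray). The red curve is below the gray one over most of the range around 0 and rises steeply between 0.5 and 1.2; its left end holds the 4 genes with a log2FC under -1.

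The HSP70 family divided by member. Hspa8 encodes HSC70, the HSP70 that most cells make at all times. Its level was 10.75, 10.55 and 10.93 log2 CPM in CpG-stimulated replicates 1, 2 and 3, and 9.41, 9.62 and 9.498 in the unstimulated ones. Every CpG-stimulated sample was above every unstimulated sample, and Hspa8 rose by a log2FC of 1.24 (SE 0.0995, FDR = 1.69e-06), or 2.36-fold. Hspa2, an HSP70 best known from spermatogenesis, rose by 0.89, and the HSP110 genes Hspa4 and Hsph1, whose products release nucleotide from HSP70, rose by 0.61 and 0.89.

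The stress-inducible HSP70 genes Hspa1a and Hspa1b, which encode nearly the same protein, were lower with CpG. Hspa1a stood at 5.08, 6.75 and 5.02 log2 CPM with CpG and at 7.21, 8.36 and 7.81 without. Hspa1b stood at 5.36, 7.15 and 5.27 with CpG and at 7.73, 8.90 and 8.46 without. For each gene the groups did not overlap, and replicate 2 was the highest sample of its group. Hspa1a fell 4.52-fold (log2FC -2.18, SE 0.42, FDR = 9.47e-04) and Hspa1b fell 5.40-fold (log2FC -2.43, SE 0.45, FDR = 6.91e-04). These were the least precise of the large changes, and without a filter on low values they missed the threshold, with adjusted p values of 0.0578 and 0.0504 (limma). With the replicate number as a block, their FDR values were 2.08e-08 and 3.8e-08 (limma). The deposited values appear to carry an adjustment by replicate number, and its part in the blocked values was not tested. Replicate 2 of each group was also highest in the erythroid marker Beta-s, at 12.16 and 11.76 log2 CPM against 8.46 to 9.10 in the other samples. A link between this and the levels of Hspa1a and Hspa1b was not tested. Without replicate 2 of each group, Hspa1a had a log2FC of -2.46 and Hspa1b of -2.77, and without CpG-stimulated replicate 2 alone these values were -2.74 and -3.04.

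Hspa1a (mm10, chr17:34969190-34972156, minus strand) and Hspa1b (chr17:34956436-34959238, minus strand) are neighbors, and 52.7% of the 75-base windows of the Hspa1a transcript also occur in Hspa1b, so reads could not be assigned to one or the other with certainty. Their promoters are shown because these genes moved together, and the sequences are from the RefSeq table of GRCm38.p6, 250 bases up to the start site, 5′ to 3′ on the minus strand. Capitals mark a GAANNTTC or TTCNNGAA match, which is a pair of inverted GAA units as found in heat shock elements. Hspa1a is chr17:34972157-34972406 and Hspa1b is chr17:34959239-34959488.
Hspa1a: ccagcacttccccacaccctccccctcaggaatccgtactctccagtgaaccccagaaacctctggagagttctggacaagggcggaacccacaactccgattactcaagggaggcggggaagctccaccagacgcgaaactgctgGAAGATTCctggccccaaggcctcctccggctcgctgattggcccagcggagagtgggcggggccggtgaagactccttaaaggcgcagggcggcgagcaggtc
Hspa1b: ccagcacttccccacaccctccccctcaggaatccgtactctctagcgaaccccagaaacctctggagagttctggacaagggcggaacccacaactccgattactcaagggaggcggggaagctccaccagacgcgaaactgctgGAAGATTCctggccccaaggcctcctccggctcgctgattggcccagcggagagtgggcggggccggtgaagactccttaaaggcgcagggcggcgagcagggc
The promoters were identical at 247 of 250 bases (98.8%), and the match was at -104 to -97 from the start in each.

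Hspa4l, an HSP110 gene related to Hspa4, had the most negative log2FC of the 46. It stood at 2.51, 2.50 and 2.47 log2 CPM with CpG and at 5.05, 4.999 and 4.84 without. The 3 CpG-stimulated samples were within 0.05 of one another and far below the unstimulated ones, and Hspa4l fell 5.53-fold (log2FC -2.47, SE 0.0987, FDR = 3.21e-08). Hspa14, a ribosome-associated HSP70, fell by a smaller step, with a log2FC of -0.23 (SE 0.0642, FDR = 8.39e-03). Per kb of exon, Hspa8 had a level of 8.25 log2 CPM per kb without CpG and Hspa1b of 6.87; with CpG these levels were 9.49 and 4.44. Hspa4l was the lowest of the 46 genes with CpG on this scale, at -0.77 log2 CPM per kb. Without the division by exon length, its mean with CpG (2.50 log2 CPM) was above those of Bag2 (2.44), Bag3 (1.64) and Hspb1 (0.59).

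**Figure D3:**
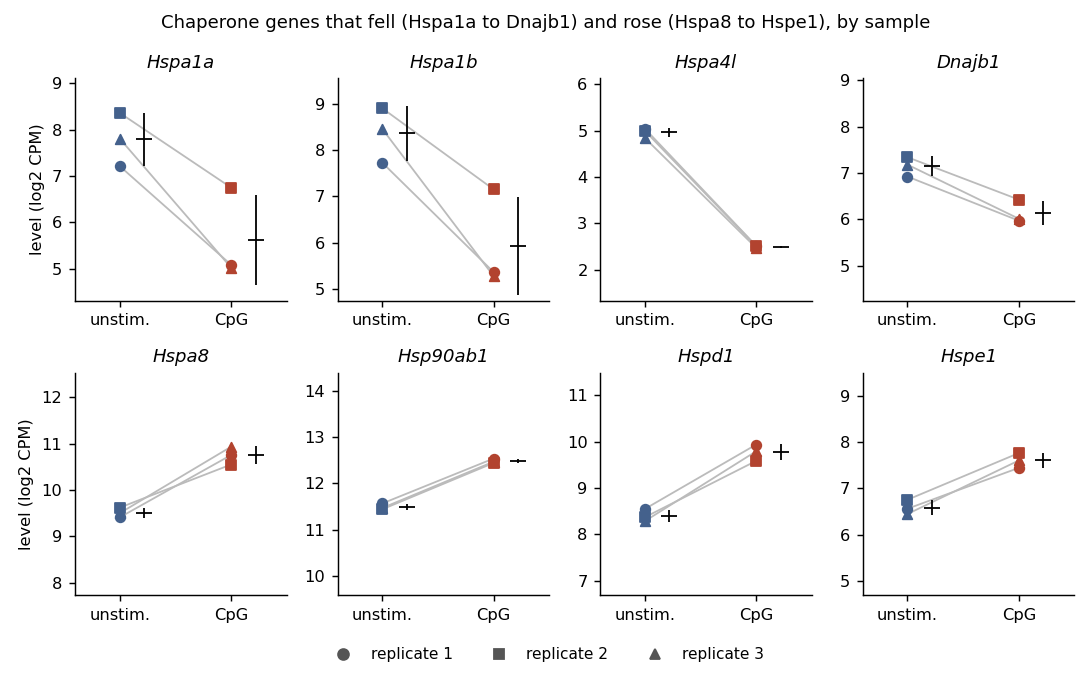
Level (y axis, log2 CPM, each panel spanning the same number of units) of 4 genes that fell (top) and 4 that rose (bottom) in unstimulated (blue) and CpG-stimulated (red) samples; symbols give the replicate number, gray lines join samples of the same number, and the black bar beside each group is its mean with the SD (n = 3). Hspa1a and Hspa1b have the widest spread, with replicate 2 on top in each group, whereas the points of Hspa4l and Hsp90ab1 nearly coincide within a group.

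The 6 J protein genes had log2FC values from -1.01 to 0.79. Of these, 4 rose (66.7%, against 37.6% of all genes tested) and 2 fell (33.3%, near the 36.7% of all genes). Dnaja2, a general partner of cytosolic HSP70 and the J protein with the highest level per kb, stood at 8.71, 8.62 and 8.59 log2 CPM with CpG and 8.12, 8.12 and 8.03 without. The groups were apart, and Dnaja2 rose by 0.55 (SE 0.0613, FDR = 1.81e-05). Its paralog Dnaja1 rose by 0.47, the ribosome-associated Dnajc2 by 0.79, and Dnajb6, which holds back the aggregation of polyglutamine proteins, by 0.17 (FDR = 0.0382). The Dnajb6 call was lost in 8 of 13 alternative settings, where its FDR reached 0.102.

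Dnajb1, the stress-inducible HSP40, fell. It stood at 5.97, 6.43 and 6.01 log2 CPM with CpG and at 6.92, 7.34 and 7.18 without. Again the groups did not overlap and replicate 2 was the highest in each, and Dnajb1 fell 2.02-fold (log2FC -1.01, SE 0.133, FDR = 6.16e-05). Its relative Dnajb4 fell by 0.77 on the log2 scale (SE 0.138, FDR = 5.39e-04). Without replicate 2 of each group, the log2FC was -1.06 for Dnajb1 and -0.86 for Dnajb4.

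Among exchange factors and BAG proteins, Bag2, which inhibits the ubiquitin ligase CHIP on HSP70, had the largest rise of the 46 genes on the log2 CPM scale, at a low level. It stood at 2.54, 2.17 and 2.63 log2 CPM with CpG and at 1.04, 0.25 and -0.42 without. All CpG-stimulated samples were above the unstimulated ones, which were spread widely, and Bag2 rose 4.45-fold (log2FC 2.15, SE 0.333, FDR = 1.97e-04). On a log2(CPM + 1) scale its change was 1.51, less than that of Pfdn4 (1.68). Bag1, which links HSP70 to the proteasome, stood at 7.21, 7.29 and 7.05 with CpG and at 6.52, 6.56 and 6.53 without, and rose by 0.65 (SE 0.0704, FDR = 1.54e-05). Hspbp1, an HSP70 exchange factor, rose by 1.01 (SE 0.0892, FDR = 3.41e-06). Bag3, a stress-inducible partner of HSP70 in selective autophagy, was low and fell by 0.60 on the log2 scale (SE 0.164, FDR = 7.68e-03).

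Summed RNA of the HSP90 genes in the set, Hsp90ab1 and Hsp90aa1, nearly doubled. Hsp90ab1, the constitutive form, had the highest level per kb of all 46 genes in each group, at 11.1 log2 CPM per kb with CpG and 10.2 without. Its values were 12.53, 12.44 and 12.47 log2 CPM with CpG and 11.56, 11.44 and 11.47 without. The samples within a group were close and the groups far apart, and Hsp90ab1 rose 1.99-fold (log2FC 0.99, SE 0.0769, FDR = 1.31e-06). Hsp90aa1, the more stress-responsive form, stood at 10.28, 10.24 and 10.29 with CpG and at 9.38, 9.56 and 9.41 without, and rose 1.77-fold (log2FC 0.82, SE 0.0679, FDR = 2.06e-06). Together they took 6955 ± 209 CPM with CpG and 3578 ± 99.5 CPM without (SD, n = 3), the largest sum of any role group. A further HSP90 gene, Hsp90b1, was not in the set and was named after its values were seen. It went the other way, with means of 309.2 CPM with CpG and 482.5 CPM without (log2FC -0.64, SE 0.0584, limma FDR = 4.09e-06).

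All 7 HSP90 cochaperones rose, where 37.6% of all genes tested did, and 6 of the 7 had a log2FC over 1, against 15.8% of all genes. Their changes lay in a narrow range from 0.77 to 1.14 with a median of 1.06. Fkbp4, an immunophilin of steroid receptor complexes, stood at 8.41, 8.20 and 8.38 log2 CPM with CpG and at 7.28, 7.10 and 7.19 without. Its groups were apart by more than 0.9, and it rose by 1.14 (SE 0.0744, FDR = 4.09e-07). Ptges3, or p23, which holds HSP90 in its closed state, had the highest level per kb of this group, with 9.16, 9.06 and 9.01 log2 CPM with CpG and 7.93, 8.02 and 7.94 without, and rose by 1.11 (SE 0.0622, FDR = 1.62e-07). Stip1 (HOP), which bridges HSP70 and HSP90, rose by 1.13 (SE 0.0584, FDR = 1.01e-07). Ahsa1, the activator of the HSP90 ATPase, rose by 1.06 (SE 0.0580, FDR = 1.36e-07). St13 (HIP), which binds the ADP state of HSP70, rose by 1.01 (SE 0.0591, FDR = 2.05e-07). Fkbp5, the immunophilin induced by glucocorticoids, rose 2.01-fold (SE of the log2FC 0.0757, FDR = 1.06e-06). Cdc37, which brings kinases to HSP90, rose by 0.77 (SE 0.0641, FDR = 2.20e-06).

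The subunits of CCT rose together. All 7 genes in the set were higher with CpG, where 37.6% of all genes tested were, with log2FC values of 0.58 to 1.30 and a median of 0.82. Their summed level was 5065 ± 143 CPM with CpG and 2769 ± 95.1 CPM without (SD, n = 3), a ratio of 1.83. Cct3 changed the most of them. It stood at 9.79, 9.70 and 9.75 log2 CPM with CpG and at 8.52, 8.41 and 8.402 without, with groups that were apart, and rose 2.47-fold (SE 0.0615, FDR = 6.25e-08). Cct8 rose by 1.17 (SE 0.0575, FDR = 7.63e-08). Cct2 had the highest level per kb but the smallest log2FC, with 9.90, 9.84 and 9.85 log2 CPM with CpG, 9.36, 9.30 and 9.20 without, and a change of 0.58 (SE 0.0646, FDR = 1.81e-05). Cct5, Tcp1, Cct7 and Cct4 rose by 0.94, 0.82, 0.75 and 0.65. Per kb of exon, the 7 subunits spanned 6.88 to 8.25 log2 CPM per kb without CpG and 7.71 to 8.83 with it, a span of 1.37 and 1.12 units. Cct6a, a further subunit of the ring that was not in the set and was named after its values were seen, rose by 1.51 (SE 0.0652, FDR = 4.32e-08).

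Prefoldin, which delivers actin and tubulin chains to CCT, changed in different directions by subunit. Pfdn4 stood at 5.16, 5.06 and 5.12 log2 CPM with CpG and at 3.35, 3.36 and 3.29 without. The spread within each group was small, and Pfdn4 rose 3.42-fold (log2FC 1.77, SE 0.0839, FDR = 6.33e-08), the second-largest rise of the 46 genes on this scale. Pfdn2 rose by 1.09 (SE 0.0853, FDR = 1.41e-06). Pfdn5 had the highest level per kb of the prefoldin genes averaged over all samples, though not with CpG, and stood at 7.03, 7.58 and 7.12 log2 CPM with CpG and at 8.01, 8.19 and 8.09 without. It was lower in all CpG-stimulated samples, and fell 1.80-fold (log2FC -0.85, SE 0.126, FDR = 1.44e-04). Pfdn1 did not pass the test, with 4.08, 4.38 and 4.19 log2 CPM with CpG and 3.95, 4.11 and 4.13 without (log2FC 0.15, SE 0.106, FDR = 0.207), and its groups overlapped. The summed level of the 4 genes was 385 to 480 CPM with CpG and 390 to 424 CPM without, and thus overlapped. Of the prefoldin subunits outside the set, Pfdn6 and Vbp1, named here to complete the complex, had log2FC values of 0.61 (FDR = 1.22e-05) and 0.043 (FDR = 0.679).

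**Figure D4:**
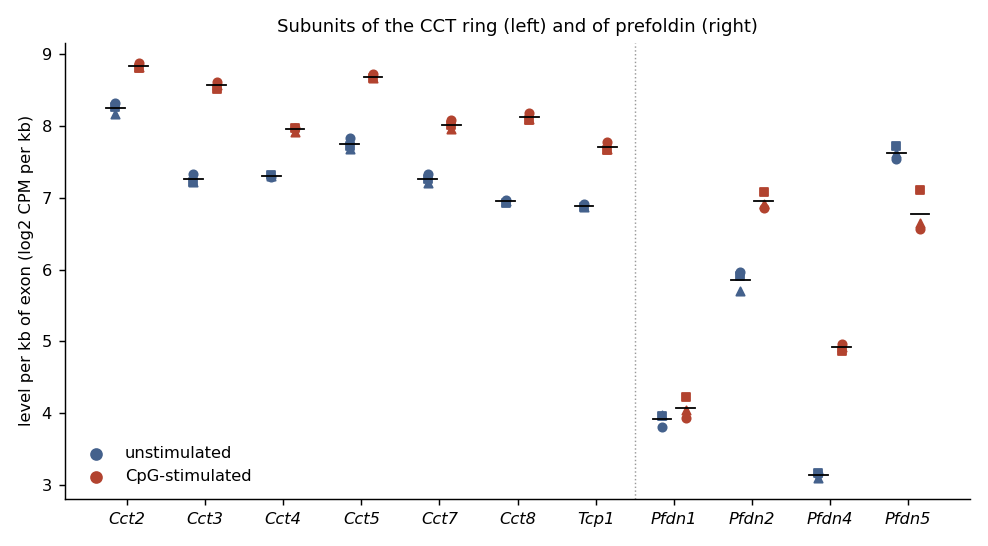
Level per kb of exon (y axis, log2 CPM per kb) of the 7 CCT subunit genes and the 4 prefoldin genes in the 3 unstimulated (blue) and 3 CpG-stimulated (red) samples; symbols give replicates 1 (circle), 2 (square) and 3 (triangle), and black lines are group means. Every CCT subunit is higher with CpG, whereas Pfdn4 and Pfdn2 are higher, Pfdn5 is lower and the points of Pfdn1 overlap.

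The plot of the CCT and prefoldin subunits sets both complexes on one scale. Without CpG the 4 prefoldin genes ran from 3.14 (Pfdn4) to 7.62 (Pfdn5) log2 CPM per kb, and with CpG from 4.07 (Pfdn1) to 6.95 (Pfdn2). Other genes share sequence with some of them. Exons of Klhdc9 overlap 30.8% of the exon bases of Pfdn2, and Gm16796 overlaps 23.7% of those of Pfdn4, each on the opposite strand, while Myg1 overlaps 11.9% of those of Pfdn5 on the same strand. The strand setting of the counting is not given in the sources used here, and the part of these overlaps in the results was not tested.

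The 5 mitochondrial chaperone genes all rose, where 37.6% of all genes tested did. Hspd1 (HSP60), which forms the folding chamber, stood at 9.94, 9.59 and 9.79 log2 CPM with CpG and at 8.55, 8.37 and 8.28 without. It was higher in every CpG-stimulated sample, and rose 2.59-fold (log2FC 1.37, SE 0.0982, FDR = 7.53e-07). Hspe1 (HSP10), the lid of that chamber, stood at 7.44, 7.76 and 7.600 with CpG and at 6.56, 6.75 and 6.44 without. Its groups did not overlap either, and it rose 2.02-fold (log2FC 1.02, SE 0.0986, FDR = 6.54e-06). Trap1, the HSP90 of mitochondria, rose by 0.88, Hspa9 (mortalin), the mitochondrial HSP70, by 0.70, and Dnaja3, its J protein, by 0.32. Summed levels of the 5 genes were 2149 ± 177 CPM with CpG and 1100 ± 84.8 CPM without (SD, n = 3), a ratio of 1.95.

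Hspd1 and Hspe1 lie head to head on chromosome 1. RefSeq lists 2 promoters of Hspd1. The start whose promoter holds the element described here is at 55087932 on the minus strand, 216 bases from the Hspe1 start at 55088148 on the plus strand, whereas the Hspd1 span in the annotation reaches to 55088243, past the Hspe1 start. The promoter of Hspe1 is shown because the pair rose together. It is the RefSeq sequence in GRCm38.p6, chr1:55087898-55088147, 250 bases up to the start site, 5′ to 3′ on the plus strand. Capitals mark overlapping matches to a heat shock element of 3 units, GAANNTTCNNGAA or TTCNNGAANNTTC.
Hspe1: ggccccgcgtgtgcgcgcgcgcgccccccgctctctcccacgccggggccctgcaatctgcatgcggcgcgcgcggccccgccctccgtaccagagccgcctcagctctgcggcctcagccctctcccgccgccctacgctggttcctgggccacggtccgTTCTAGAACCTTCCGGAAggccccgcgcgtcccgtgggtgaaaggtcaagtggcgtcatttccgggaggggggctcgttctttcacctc
The 18 bases in capitals, chr1:55088059-55088076, are at -89 to -72 from the Hspe1 start and are the same bases that match in that Hspd1 promoter.

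Promoters of 37 of the 46 genes were in the RefSeq table (250 bases before to 50 after the start). Those of Hspa8, Hspa9, Hsp90aa1, Hsp90ab1, St13, Dnajc2, Cct4, Pfdn1 and Hsf1 were not. Only exact matches within these bases were counted, so a gene without a match may still have a heat shock element. The 3-unit element was found on either strand in 4 of the 37, Hspd1, Hspe1, Hsph1 and Dnajb6, where Hspd1 and Hspe1 share the same bases. Of all 27025 genes in the table, 179 had a promoter with it (0.662%). These 4 genes were all higher with CpG, where 37.6% of all genes tested were. The Dnajb6 call among them was lost in 8 of 13 alternative settings. The 2-unit form, GAANNTTC or TTCNNGAA, is contained in every 3-unit match. It was in 14 of the 37, where 17.0% of all genes in the table had a promoter with it. Per promoter, 0.603% of all 32851 held the 3-unit element and 15.1% the 2-unit form. Of these 14 genes, 9 rose (Cct2, Cct5, Cdc37, Dnaja1, Dnajb6, Fkbp4, Hspd1, Hspe1 and Hsph1), 4 fell (Hspa1a, Hspa1b, Bag3 and Dnajb4) and Hspb1 did not pass the test. Of all 37, 28 rose and 8 fell, where 37.6% of all genes tested rose and 36.7% fell. A link between these matches and the changes was not tested.

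The heat shock factors themselves were higher with CpG. Hsf1, the main factor of the heat shock response, stood at 6.56, 6.48 and 6.49 log2 CPM with CpG and at 6.13, 6.22 and 6.20 without. The groups were apart by a small step, and Hsf1 rose by 0.33 (SE 0.0621, FDR = 8.00e-04). Hsf2, which acts in development and can pair with HSF1, was lower in level, with 4.46, 4.33 and 4.05 with CpG and 3.38, 3.21 and 3.27 without, and rose by 0.99 (SE 0.122, FDR = 3.69e-05). The small heat shock protein gene Hspb1, which encodes an ATP-independent holdase, did not pass the test. It stood at 0.56, 1.52 and -0.31 log2 CPM with CpG and at 1.10, 1.93 and 1.26 without, so that the groups overlapped (log2FC -0.84, SE 0.423, FDR = 0.0967). Its values were lower with CpG in all 3 pairs of the same replicate number, and with the replicate number as a block its FDR was 0.0155 (limma). Without CpG-stimulated replicate 2 its log2FC was -1.30 and its FDR 0.00616.

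Partner genes were also compared within samples. For 8 pairs, the log2 difference between the partners was taken in each sample and set between the groups by an exact permutation test (two-sided, 20 arrangements, smallest possible p = 0.1, Benjamini-Hochberg adjustment over 8 pairs), so that no pair could pass 0.05 in this design. The difference of Hspa8 from mitochondrial Hspa9 was larger with CpG by 0.53 (0.995 ± 0.14 against 0.46 ± 0.23, SD, n = 3, exact p = 0.1, adjusted p = 0.2). The difference of Hsf1 from Hsf2 was smaller with CpG by 0.66 (2.23 ± 0.18 against 2.89 ± 0.14, exact p = 0.1, adjusted p = 0.2). In each of these, as in Bag2 and Bag1 and in Fkbp4 and Fkbp5, the groups did not overlap. The difference of Hspd1 from Hspe1 was 2.17 ± 0.34 with CpG and 1.81 ± 0.19 without (exact p = 0.3), and that of Hsp90aa1 from Hsp90ab1 was -2.21 ± 0.039 and -2.04 ± 0.16 (exact p = 0.2). For the latter pairs, as for Hspa4 and Hsph1 and for Dnaja1 and Dnaja2, the groups overlapped.

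For the same machinery beyond the 46 genes, 115 further chaperone and cochaperone genes were listed by function, of which 99 passed the filter. Of these, 50 rose (50.5%, against 37.6% of all genes tested), 21 fell (21.2%, against 36.7%) and 28 did not pass the test, with a median log2FC of 0.20. The 46 genes had the higher shares of rises and the higher median, a comparison that was not tested. By function, 16 of 24 tested further HSP90 genes and cochaperones rose and 4 fell, 11 of 16 CCT, prefoldin and folding partner genes rose and 1 fell, and 10 of 35 J protein genes rose (28.6%) and 13 fell (37.1%), shares below and near those of all genes. The largest rises were of Dnajc15, a J protein of the mitochondrial inner membrane (log2FC 1.93, SE 0.101), Ruvbl2, an ATPase that works with HSP90 in assembling complexes (1.66, SE 0.0801), and Ppid, the HSP90 immunophilin cyclophilin 40 (1.58, SE 0.0988). The largest falls were of Dnajc28 (log2FC -3.12, SE 0.480), the small heat shock protein gene Hspb6 (-2.40, SE 0.330) and Dnajc9, a J protein that binds histones (-1.16, SE 0.0907). With CpG, Dnajc28 (-1.55, -3.29 and -1.87 log2 CPM) and Hspb6 (-1.72, -1.27 and -0.83) were under the level of 10 reads in all 3 samples, and passed the filter through the unstimulated samples, so the size of their falls and their rank are uncertain. FDR values of these genes ran from 7.05e-08 for Ruvbl2 to 1.87e-04 for Dnajc28.

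Several chaperone genes have near-identical copies in the genome. Of the 75-base windows of the transcript, 68.6% occur in other genes for Hspa8, mostly in Gm15459, 53.1% for Hsp90aa1, 47.3% for Hspb1, 39.5% for Dnajb6, 33.7% for Hspd1 and 29.1% for Hspe1. For Hsp90ab1 the share was 0.70%, and for Cct2, Cct3, Cct4, Cct5, Fkbp4, Dnajb1 and Hspa2 it was 0. Counts of genes with shared windows thus depend on how reads with several matches were treated, and the part of this in their values was not tested.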

How the data were processed

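mRNA of 6 samples was sequenced in paired reads of 75 bases. Per the labels' processing notes and the methods, the authors trimmed reads (Trim Galore 0.6.5, FastQC 0.11.7), aligned them to mm10 with STAR 2.6.1a, counted them per gene with featureCounts of Subread 2.0.1, quantile normalized the counts and converted them with voom. The deposited values are on a log2 scale (log2 CPM), and raw counts were not used here. Sums over all genes were 992384 to 1012396 CPM in each sample. The CPM scale sets these sums to a common total at any depth, so they do not show whether the libraries differed in depth. The zero level and the 10-read filter assume voom's offset of 0.5 reads and cover counting error only.

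The CpG-stimulated group was set against the unstimulated group in a linear model (limma 3.58.1 under R 4.3.3, with eBayes(trend=TRUE) and without a block) fitted to all genes over 10 reads in 3 or more samples, with Benjamini-Hochberg adjustment over all of them. A call was an FDR under 0.05. The test was first run on simulated data with independent noise in each sample and few changed genes. That setting leaves out the sharing of mice between samples and the apparent adjustment by replicate number. It therefore does not show how the test performs in this design. With 3 mice in all for 6 samples, the samples cannot each have come from a separate mouse, and p values measure only the spread between these samples. Members, role groups, the list of further chaperone genes and all tests were chosen with earlier results of these data known. Genes with values in every sample are, within each role group, the one with the largest absolute log2FC and the one with the highest level per kb, plus Hsf1, Hsf2 and genes that did not pass; members with an absolute log2FC over 1 are given with SE and FDR, other members with their log2FC, and the 3 largest rises and falls of the further genes. Hspa1a, Hspa1b, Hspe1 and Hsp90aa1 were given in full beside their partners. 1 gene of the B cell marker list is not reported here and was left out of its sums. Exon lengths, with the exons of all transcripts of a gene merged, came from the GENCODE annotation of GRCm38, and promoters from RefSeq (GRCm38.p6). Levels per kb and their ranks depend on these lengths.

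Deviations from group means correlated at r = 0.435, 0.224 and 0.300 between samples of the same replicate number and at -0.281 to 0.0279 between others, so the numbers were taken to pair the samples, and a blocked fit was run. Of 8393 values below the zero level, 63.6% were identical in the sample of the same number, so the deposited values also appear to carry an adjustment by number; its making is not given in the sources used here, and its part in the pairing was not tested. Alternatives were no filter, 10 reads in all 6 samples, log2(CPM + 1), the replicate block, no variance trend, median centring, and each sample left out.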

Additional observations from a re-analysis of the deposited data

How the results depend on the processing

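Of 598 values of single genes (46 genes under 13 alternatives), 585 kept their direction and their side of the FDR threshold, 10 lost the call (Hspa1a and Hspa1b without a filter on low values, Dnajb6 in 8 settings), 3 gained it (Hspb1) and 0 reversed. Without a filter, 2 genes instead of 4 fell with a log2FC under -1, since Hspa1a and Hspa1b missed the threshold. With each sample left out in turn, 35 to 36 members rose, 8 to 9 fell, 12 to 17 rose by over 1, 3 to 6 fell by over 1 on the log2 scale, and the median log2FC was 0.77 to 0.83. In the same fits, 3937 to 4285 of all 11233 genes tested rose and 3845 to 4148 fell. Counts of all genes that changed by over 1 were not computed for these fits. The difference of Dnaja1 from Dnaja2 between the groups was -0.0847, ranged from -0.129 to 0.00467 when 1 sample was left out, and reversed without CpG-stimulated replicate 1; the cause was not tested. The replicate block changed no call of a member other than Hspb1, whose FDR was 0.0155 with it. With the block, 36 members rose and 9 fell, and 4390 of all 11233 genes tested rose and 4287 fell. Without replicate 2 of each group, an alternative chosen after seeing the data, 35 members rose and 9 fell. Over all settings, this one included, 3905 to 4390 of all genes rose and 3793 to 4287 fell, with the number tested set by the filter. With 3 samples in each group, the exact test of partner pairs cannot pass 0.05. The largest SEs of the log2FC were those of Hspa1b, Hspa1a, Hspb1 and Bag2.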
